A study of Mus musculus with 6 samples.

Results

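Integrins are cell-surface adhesion receptors made of an alpha and a beta subunit, and 10 genes that encode them were followed here: the alpha subunit genes Itga2, Itga4, Itga6, Itgae, Itgal and Itgav and the beta subunit genes Itgb1, Itgb2, Itgb3 and Itgb7. They were taken by gene symbol from the deposited count table, which held 21017 genes, and all 10 were found there. The cells were group 2 innate lymphoid cells (ILC2s), lung-resident lymphocytes without rearranged antigen receptors that make type 2 cytokines. Per the labels, they came from the lungs of 8-week-old mice on the C57BL/6J background with the genotype IL-10GFP, a green fluorescent reporter of IL-10. IL-10-producing ILC2s (3 libraries) were compared with IL-10-negative ILC2s (3 libraries), sorted apart after the same culture protocol. Both populations carried the reporter, both came from mice given 3 intranasal doses of 0.5 µg recombinant IL-33, and both were cultured for 48 h with 3 cytokines, IL-4, IL-7 and IL-2, each at 10 ng/mL, before the second sort. Whether the libraries of a group came from separate mice or cultures was not stated, so the p-values cover the spread among these libraries alone, and that spread may be technical.

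A single beta subunit can pair with several alpha subunits, and the pair sets the ligand. As background, Itga4 with Itgb1 binds VCAM-1 and fibronectin, Itga4 with Itgb7 binds MAdCAM-1 of gut vessels, Itgae with Itgb7 binds E-cadherin of epithelium, and Itgal with Itgb2 forms LFA-1, which binds the ICAM proteins. Itgav pairs with Itgb1 or Itgb3 to bind vitronectin, fibronectin and other matrix proteins, Itga6 with Itgb1 binds laminin, and Itga2 with Itgb1 binds collagen. Lymphocytes use these receptors to leave vessels, to hold on to tissue and to contact other cells. Subunits appear at the surface only as pairs, and mRNA levels alone do not give the number of pairs.

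The libraries held 47012941 to 69511433 counts each. Il10 itself averaged 848 ± 7.78 CPM (counts scaled to library size) in IL-10-producing libraries, against 13.5 ± 0.608 CPM in IL-10-negative libraries (n = 3 each, ± SD), which checks the labels because the cells were sorted on its reporter. Markers are called higher or lower at an adjusted p under 0.05 in the edgeR test described below. Over all genes tested, 17.1% were higher and 18.6% lower. At 5 CPM or more in either population, 2542 of 10548 genes were higher and 2439 lower. All 12 ILC2 markers were detected, 4 of them higher (Klrg1, Il2ra, Il5 and Arg1) and 6 lower (Gata3, Il1rl1, Rora, Icos, Thy1 and Il13) in IL-10-producing cells. Their levels summed to 15600 to 15730 CPM in IL-10-producing libraries, against 14790 to 14940 CPM in IL-10-negative libraries, of which Il2ra alone averaged 5835 CPM in IL-10-producing libraries, against 4206 CPM in IL-10-negative libraries. Markers of several other cell types were lower beside them. Of 14 T cell markers 1 was higher and 13 lower (summed level 117 to 120.0 CPM in IL-10-producing libraries, against 196 to 203 CPM in IL-10-negative libraries). Most of that sum in both populations was Trbc2, Trbc1 and Lef1, the last being the higher marker, and these differed least. The other T cell markers had log2 fold changes (IL-10-producing over IL-10-negative) from -7.96 for Cd8a to -1.335 for Cd3g, wider gaps than the sum shows. All 10 mast cell and basophil markers were lower (12.1 to 14.1 CPM in IL-10-producing libraries, against 68.7 to 73.8 CPM in IL-10-negative libraries). Of 9 tested neutrophil, monocyte and macrophage markers 1 was higher and 6 lower (7.69 to 8.46 CPM in IL-10-producing libraries, against 43.95 to 47.1 CPM in IL-10-negative libraries). Most of the sum in IL-10-negative libraries was Mpo, at 0.954 CPM in IL-10-producing libraries, against 30.55 CPM in IL-10-negative libraries. Most of the sum in IL-10-producing libraries was Cd68, the higher marker, at 4.85 CPM, against 3.87 CPM in IL-10-negative libraries. Lyz2 and Cd14 did not pass. The NK cell list had 2 higher and 3 lower of 5 tested (78.6 to 90.7 CPM in IL-10-producing libraries, against 26.65 to 28.8 CPM in IL-10-negative libraries), with Ncr1, Klre1 and Klrd1 at 0 in all IL-10-producing libraries. Most of the sum in IL-10-producing libraries was Gzma, at 76.0 CPM in IL-10-producing libraries, against 10.3 CPM in IL-10-negative libraries, while Klrb1c, Eomes and Txk were lower. Of 7 B cell markers 6 were lower (16.1 to 17.7 CPM in IL-10-producing libraries, against 18.3 to 19.0 CPM in IL-10-negative libraries). Most of this sum was Cd79b, which was not called. Of 3 tested epithelial markers 2 were lower (18.2 to 18.5 CPM in IL-10-producing libraries, against 23.5 to 23.9 CPM in IL-10-negative libraries). Of 4 tested dendritic cell markers 1 was lower, with Siglech at 0 in all IL-10-producing libraries (121 to 125 CPM in IL-10-producing libraries, against 124 to 127 CPM in IL-10-negative libraries). Most of the epithelial sum was Epcam, and nearly all of the dendritic cell sum was Xcr1 and Ccr7. No platelet marker of 3 tested and no endothelial or stromal marker of 1 tested was called, and the platelet list summed to 3.25 CPM at most in IL-10-producing libraries, against 3.24 CPM at most in IL-10-negative libraries, and the endothelial and stromal list to 0.818 CPM at most in IL-10-producing libraries, against 1.143 CPM at most in IL-10-negative libraries. In sorted bulk RNA, fewer cells of a type and less RNA per cell cannot be told apart, and the part of other cell types in the integrin results below was not tested.

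Integrin mRNA differed between the populations in both directions, and the largest fold change among the 10 was a lower level of Itgb3 in IL-10-producing cells. Of the 10 genes, 5 were higher (Itga4, Itga2, Itgae, Itgb7 and Itgav), 4 were lower (Itgb3, Itgb1, Itgal and Itgb2) and Itga6 did not pass the test, which was edgeR's quasi-likelihood test with Benjamini-Hochberg adjustment over 16654 genes and a threshold of 0.05. Calls were common in these data, since 35.7% of all genes tested were called, 17.1% as higher and 18.6% as lower. They were more common at 5 CPM or more in either population, where 9 of the 10 integrin genes lie. There, 2542 of 10548 genes were higher and 2439 lower. With library size only as the scaling, 36.8% of all called genes were higher, against 47.8% with TMM scaling. In TMM-scaled CPM, the IL-10-producing and IL-10-negative libraries did not overlap for 9 of the 10 integrin genes. Of these, 5 had higher and 4 had lower levels in IL-10-producing libraries. Over all genes the populations did not overlap in 45.2%, higher in 21.7% and lower in 23.5%. Small differences passed, so a stricter test against a change of at least 1.2-fold was added after the data had been seen. It kept Itga4 and Itga2 as higher and Itgb3 and Itgb1 as lower, 4 of 10 genes, where it called 7.91% of all genes, 2.44% as higher and 5.46% as lower. The median log2 fold change of the 10 genes (IL-10-producing over IL-10-negative) was 0.03, beside -0.004 over all genes tested. Their median absolute log2 fold change was 0.27, beside 0.14 over all genes tested and 0.102 over those at 5 CPM or more.

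**Figure D1:**
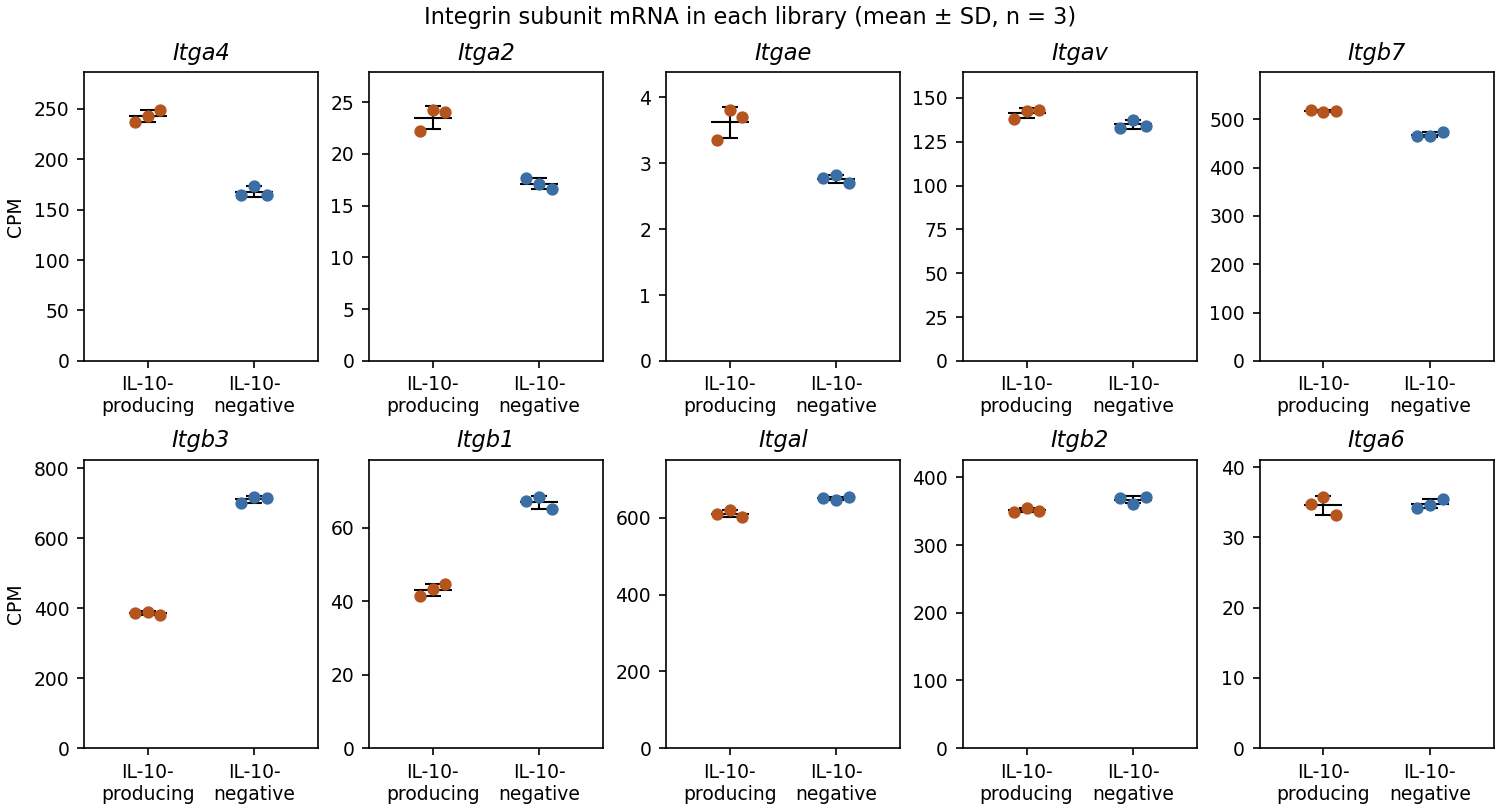
Level of each of the 10 integrin subunit mRNAs (y axis, CPM, from 0, a separate scale per gene) in 3 IL-10-producing and 3 IL-10-negative libraries; points are libraries and black bars the mean and SD. The populations lie apart for 9 genes, by the most for Itgb3 (380.1 to 391 CPM in IL-10-producing libraries, against 701 to 718 CPM in IL-10-negative libraries), and overlap for Itga6.

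Itgb3 encodes integrin beta 3, which pairs with the alpha v chain in many cell types and with the alpha IIb chain on platelets (ENSMUSG00000020689.4, chromosome 11, 104608000 to 104670476, plus strand; positions are on mm10). It stood at 386, 391 and 380.1 CPM in the IL-10-producing libraries and at 701, 718 and 716 CPM in the IL-10-negative libraries. Every IL-10-producing library lay well below every IL-10-negative library, and the spread within each group was small beside the gap. The mean level was 386 ± 5.34 CPM in IL-10-producing cells, against 712 ± 9.55 CPM in IL-10-negative cells (SD, n = 3 each), a log2 fold change of -0.88 (SE 0.0187, adjusted p = 8.07e-22). Among the 10548 tested genes that reached 5 CPM in either population, 98.5% had a smaller absolute log2 fold change, and Itgb3 ranked 10 by p-value. The difference in means was -326 CPM.

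Itgav, which encodes the alpha v partner of Itgb3 (ENSMUSG00000027087.11, chromosome 2, 83724397 to 83806916, plus strand), differed by far less and in the other direction. It ranged over 137.9 to 143 CPM in IL-10-producing libraries, against 133 to 137.5 CPM in IL-10-negative libraries. In these TMM-scaled levels the groups lay close together without overlap, and with so small a gap the overlap depends on the scaling. The log2 fold change was 0.07 (SE 0.0245, adjusted p = 0.0362). When libraries were scaled by size alone the adjusted p was 0.277, and the call was also lost without IL-10-producing replicate 2 (0.0977) or 3 (0.0781), and without IL-10-negative replicate 1 (0.135) or 3 (0.107).

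Itgb1 encodes integrin beta 1, the subunit with the largest number of alpha partners (ENSMUSG00000025809.15, chromosome 8, 128685654 to 128733200, plus strand). Its level was 41.3, 43.4 and 44.6 CPM in IL-10-producing libraries, against 67.3, 68.3 and 65.0 CPM in IL-10-negative libraries. All IL-10-producing libraries were below all IL-10-negative ones, as for Itgb3. Its log2 fold change was -0.63 (SE 0.036, adjusted p = 3.17e-13), with a mean of 43.1 ± 1.63 CPM in IL-10-producing libraries, against 66.9 ± 1.71 CPM in IL-10-negative libraries (n = 3 each, ± SD). A smaller absolute log2 fold change was seen in 97.2% of the genes at 5 CPM or more.

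Among the 10 genes, the alpha partners of Itgb1 were Itga4, Itga2 and Itgav, which were higher, and Itga6, which did not pass. Itga4, which encodes the alpha 4 chain of VLA-4 (ENSMUSG00000027009.18, chromosome 2, 79255426 to 79333123, plus strand), had 237 CPM, 243 CPM and 249 CPM in the IL-10-producing libraries and 164 CPM, 174 CPM and 165 CPM in the IL-10-negative libraries. It was higher in every IL-10-producing library, by 1.45-fold on average (log2 fold change 0.54, SE 0.0244, adjusted p = 4.44e-15), and 96.2% of the genes at 5 CPM or more changed by less. Itga2, which encodes the collagen-binding alpha 2 chain (ENSMUSG00000015533.9, chromosome 13, 114833081 to 114932100, minus strand), was also higher in every IL-10-producing library. It stood at 22.2, 24.2 and 24.1 CPM in IL-10-producing libraries, against 17.65, 17.1 and 16.6 CPM in IL-10-negative libraries. The groups did not overlap, the ratio of fitted means was 1.38 and the log2 fold change was 0.46 (SE 0.0537, adjusted p = 1.54e-07). Itga6, which encodes the laminin-binding alpha 6 chain (ENSMUSG00000027111.15, chromosome 2, 71745616 to 71858416, plus strand), ranged over 33.2 to 35.7 CPM in IL-10-producing libraries, against 34.2 to 35.5 CPM in IL-10-negative libraries. Other annotated genes overlap Itga6, some on its own strand. The ranges of the populations overlapped and the log2 fold change was -0.007 (SE 0.0419, adjusted p = 0.923). Its sign turned positive under some alternatives, which ran from -0.04 to 0.02.

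**Figure D2:**
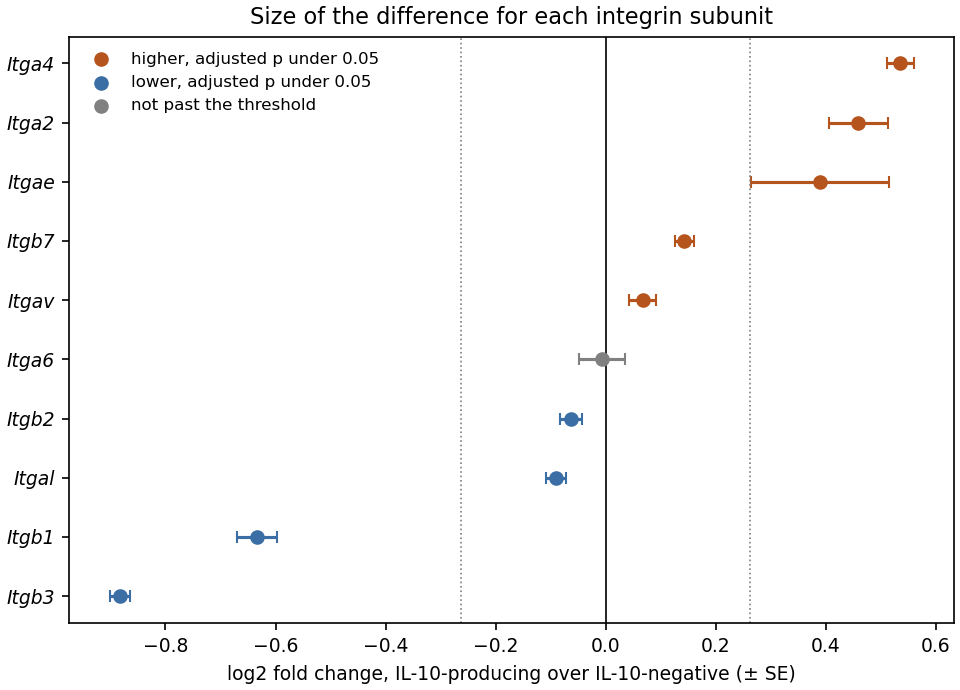
Log2 fold change of each integrin subunit gene, IL-10-producing over IL-10-negative (x axis, points with bars of 1 SE); dotted lines mark a change of 1.2-fold in either direction and colours mark calls at an adjusted p of 0.05. Itgb3 (-0.88) and Itgb1 (-0.63) lie farthest to the left and Itga4 (0.54) and Itga2 (0.46) farthest to the right, while Itgb2, Itgal, Itga6, Itgav and Itgb7 lie between the dotted lines.

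The DNA just before the start of 3 of the 4 genes that passed the stricter test is shown because these genes went opposite ways. Integrin promoters are known as mostly without a TATA box and rich in G and C. The sequences are the 250 bases before the annotated start, 5′ to 3′ on the gene's own strand, from RefSeq on GRCm38.p6. RefSeq promoters were matched for 5 of the 10 genes (Itga2, Itga4, Itgav, Itgb1 and Itgb7). Capitals mark matches to any of 6 motifs searched on both strands: the GC box GGGCGG, the RUNX motif TGTGGT, the ETS motif CCGGAA, the AP-1 motif TGANTCA, the GATA motif AGATAA and the TATA motif TATAAA, none of which overlapped another here.
Itga4 (chr2:79255176-79255425, plus strand): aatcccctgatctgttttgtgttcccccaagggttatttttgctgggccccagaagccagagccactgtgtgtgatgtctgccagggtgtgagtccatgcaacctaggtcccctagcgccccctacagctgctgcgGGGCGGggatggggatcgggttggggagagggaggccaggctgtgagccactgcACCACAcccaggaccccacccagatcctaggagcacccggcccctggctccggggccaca
Itga2 (chr13:114932101-114932350, minus strand): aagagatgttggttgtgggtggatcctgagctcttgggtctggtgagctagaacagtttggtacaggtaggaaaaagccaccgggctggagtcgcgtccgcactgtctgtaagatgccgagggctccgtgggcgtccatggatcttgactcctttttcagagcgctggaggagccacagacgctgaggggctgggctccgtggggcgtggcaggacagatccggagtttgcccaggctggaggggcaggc
Itgb1 (chr8:128685404-128685653, plus strand): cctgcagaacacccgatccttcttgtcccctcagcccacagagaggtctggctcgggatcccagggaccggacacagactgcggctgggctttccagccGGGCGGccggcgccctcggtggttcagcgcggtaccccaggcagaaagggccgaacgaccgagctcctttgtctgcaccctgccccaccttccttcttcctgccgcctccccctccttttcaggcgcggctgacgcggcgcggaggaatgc
Itga4 had a GC box 114 to 109 bases before the start and a RUNX motif, on the other strand, 60 to 55 bases before it. Itgb1 had a GC box 151 to 146 bases before the start, and Itga2, Itgav and Itgb7 held no match to these letters. Of 32851 promoters of the same length, 32.7% held the GC box, 14.0% the RUNX motif, 12% the ETS motif, 6.7% the AP-1 motif, 10.0% the GATA motif and 12.4% the TATA motif. The shares of G and C were 64.0% for Itga4, 60.8% for Itga2 and 68.0% for Itgb1, beside a median of 52.4% over all promoters. These matches describe the letters and say nothing of which factors act there.

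Itgb7, the beta subunit shared by the gut-homing receptor with Itga4 and the epithelium-binding receptor with Itgae, was the most abundant of the 10 by CPM per kilobase of transcript (ENSMUSG00000001281.10, chromosome 15, 102215995 to 102231944, minus strand). It had 519 CPM, 515 CPM and 517 CPM in IL-10-producing and 466 CPM, 465 CPM and 474 CPM in IL-10-negative libraries. The gap was small but wider than the spread within either group (log2 fold change 0.14, SE 0.018, adjusted p = 5.2e-07). Itgae, which encodes the alpha E chain known as CD103 (ENSMUSG00000005947.11, chromosome 11, 73090583 to 73147446, plus strand), was the least abundant on the same scale. Haspin is annotated within its span on the opposite strand, and whether counting used strand was not given. Itgae stood at 3.35, 3.81 and 3.70 CPM in IL-10-producing libraries, from 173 to 261 counts, and at 2.78, 2.82 and 2.70 CPM in IL-10-negative libraries, from 144 to 165 counts. The populations did not overlap, and the log2 fold change was 0.39 (SE 0.125, adjusted p = 0.0167). Without IL-10-producing replicate 2 this call was lost (adjusted p = 0.0731).

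The genes of LFA-1 were slightly lower in IL-10-producing cells. Itgal, the alpha L chain (ENSMUSG00000030830.18, chromosome 7, 127296260 to 127335138, plus strand), ranged over 602 to 621 CPM in IL-10-producing and 646 to 654 CPM in IL-10-negative libraries (log2 fold change -0.09, SE 0.0179, adjusted p = 0.000246). Itgb2, the beta 2 chain that leukocytes share among several receptors (ENSMUSG00000000290.13, chromosome 10, 77530252 to 77565708, plus strand), ranged over 349.5 to 355 CPM in IL-10-producing and 361 to 371 CPM in IL-10-negative libraries (log2 fold change -0.06, SE 0.0195, adjusted p = 0.0133). Neither pair of ranges overlapped. The Itgb2 call was lost without IL-10-producing replicate 1 (adjusted p = 0.0692) and without IL-10-negative replicate 1 (0.0631) or 3 (0.0726).

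To compare genes with each other, CPM were divided by the length in kilobases of the longest protein-coding transcript in GENCODE M21. On this scale Itgb7 led with 193 ± 0.871 CPM per kb in IL-10-producing and 174.5 ± 1.86 CPM per kb in IL-10-negative cells (SD, n = 3 each). In IL-10-negative cells Itgal (124.5 ± 0.728), Itgb2 (124 ± 1.92) and Itgb3 (123 ± 1.65 CPM per kb) came next and did not differ beyond their spread. In IL-10-producing cells Itgb2 (118 ± 1.08) and Itgal (117 ± 1.82 CPM per kb) were again close, but Itgb3 stood lower, at 66.7 ± 0.923 CPM per kb. Itga4 had 24.9 ± 0.586 CPM per kb in IL-10-producing cells, against 17.2 ± 0.542 CPM per kb in IL-10-negative cells. Itgav had 20.01 ± 0.4 CPM per kb in IL-10-producing cells, against 19.1 ± 0.336 CPM per kb in IL-10-negative cells. Itgb1 had 11.3 ± 0.428 CPM per kb in IL-10-producing cells, against 17.5 ± 0.449 CPM per kb in IL-10-negative cells. With this length Itga4 lay just below Itgb1 in every IL-10-negative library, and how close they lie depends on the length used. Itga6 had 8.02 ± 0.299 CPM per kb in IL-10-producing cells, against 8.07 ± 0.148 CPM per kb in IL-10-negative cells. The lowest levels in IL-10-producing cells were 3.31 CPM per kb for Itga2 and 0.941 CPM per kb for Itgae, against 2.41 CPM per kb for Itga2 and 0.719 CPM per kb for Itgae in IL-10-negative cells. With the length of all exons joined in place of the longest transcript, the mean over the 6 libraries put Itgb1 (13.5 CPM per kb) above Itgav (12.8), whereas the longest transcript put Itgav (19.6) above Itgb1 (14.4). The exon length also set Itgal (96.0 CPM per kb) apart from Itgb2 (118), where the longest transcript gave 120.7 and 121.0 CPM per kb, and gave Itga6 3.84 rather than 8.04 CPM per kb.

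The make-up of the beta subunit mRNA differed between the populations. Summed over Itgb1, Itgb2, Itgb3 and Itgb7, the level was 389 ± 1.25 CPM per kb in IL-10-producing cells, against 439 ± 3.18 CPM per kb in IL-10-negative cells (SD, n = 3 each). Itgb3 made up 17.1 ± 0.184% of this sum in IL-10-producing and 28.0 ± 0.362% in IL-10-negative libraries. Itgb7 made up 49.5 ± 0.34% in IL-10-producing and 39.8 ± 0.137% in IL-10-negative libraries. Itgb2 made up 30.4 ± 0.197% in IL-10-producing and 28.2 ± 0.353% in IL-10-negative libraries, and Itgb1 2.9 ± 0.113% in IL-10-producing and 4.0 ± 0.13% in IL-10-negative libraries. These shares add to the whole, so that a lower share of Itgb3 raises the others. The 6 alpha subunit genes summed to 174 ± 2.173 CPM per kb in IL-10-producing cells, against 172 ± 0.483 CPM per kb in IL-10-negative cells. Within that sum Itgal took 67.2 ± 0.526% in IL-10-producing and 72.4 ± 0.467% in IL-10-negative libraries, and Itga4 took 14.3 ± 0.371% in IL-10-producing and 9.98 ± 0.304% in IL-10-negative libraries.

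**Figure D3:**
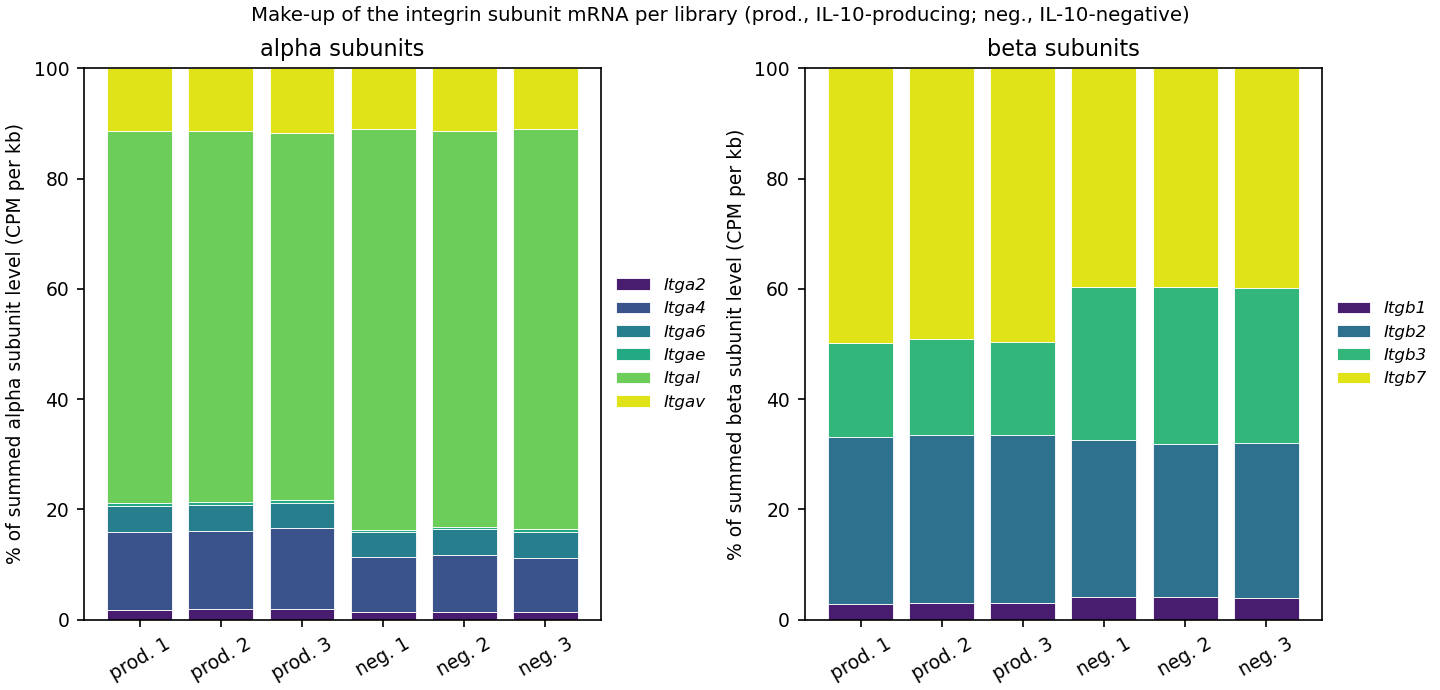
Share of each alpha (left) and beta (right) subunit gene in the summed CPM per kb of its kind (y axis, percent), 1 stacked bar per library with the 3 IL-10-producing libraries left of the 3 IL-10-negative ones. The Itgb3 band is narrower in every IL-10-producing library (16.9% to 17.3%) than in every IL-10-negative library (27.7% to 28.4%).

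Ratios of partner genes within a library do not depend on how libraries are scaled to each other, and 8 known pairs were compared. The Itga4 to Itgb1 ratio, on the scale of CPM per kb, was 2.24, 2.19 and 2.18 in IL-10-producing libraries and 0.954, 0.994 and 0.992 in IL-10-negative libraries. On this scale the alpha 4 chain mRNA was thus above that of beta 1 in every IL-10-producing library and just below it in every IL-10-negative library. This is a 2.25-fold difference in ratio (1.17 on the log2 scale). How close the levels of alpha 4 and beta 1 lie depends on the transcript length used. Itga4 has 9767 bases in the longest transcript and 13978 with all exons joined, and Itgb1 has 3815 and 4081. The Itgav to Itgb3 ratio was 0.293, 0.299 and 0.309 in IL-10-producing and 0.156, 0.157 and 0.153 in IL-10-negative libraries, a 1.93-fold difference in ratio. Here the beta chain mRNA exceeded the alpha chain mRNA in all 6 libraries, by more in IL-10-negative cells. The Itga2 to Itgb1 ratio was 0.293 ± 0.00639 in IL-10-producing libraries, against 0.137 ± 0.00322 in IL-10-negative ones (SD, n = 3 each), a 2.13-fold difference. The Itgav to Itgb1 ratio was 1.77 ± 0.0343 in IL-10-producing and 1.09 ± 0.0231 in IL-10-negative libraries.

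The remaining pairs moved less. The Itga6 to Itgb1 ratio was 0.711 ± 0.0456 in IL-10-producing and 0.461 ± 0.0195 in IL-10-negative libraries, and the Itga4 to Itgb7 ratio was 0.129 ± 0.00337 in IL-10-producing and 0.0984 ± 0.00381 in IL-10-negative libraries (SD, n = 3 each). The Itgae to Itgb7 ratio was 0.00488 ± 0.000348 in IL-10-producing and 0.00412 ± 0.000131 in IL-10-negative libraries, so that alpha E mRNA was scarce beside beta 7 mRNA in both populations. The LFA-1 pair, Itgal to Itgb2, had ratios of 0.988 ± 0.00875 in IL-10-producing and 1.01 ± 0.0104 in IL-10-negative libraries, a difference of -0.03 on the log2 scale, and the level of the ratio depends on the transcript length used. For all 8 pairs the populations did not overlap. The pairs share genes, with Itgb1 in 4 of the 8, and 45.2% of single genes did not overlap either, so nothing particular to these pairs is read from that count. The two-sided exact permutation test gave p = 0.1, the smallest value that 3 against 3 libraries allow, and 0.1 after Benjamini-Hochberg adjustment over the 8 pairs. No pair could therefore pass a threshold of 0.05. The fold difference in a ratio between populations does not depend on transcript length.

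**Figure D4:**
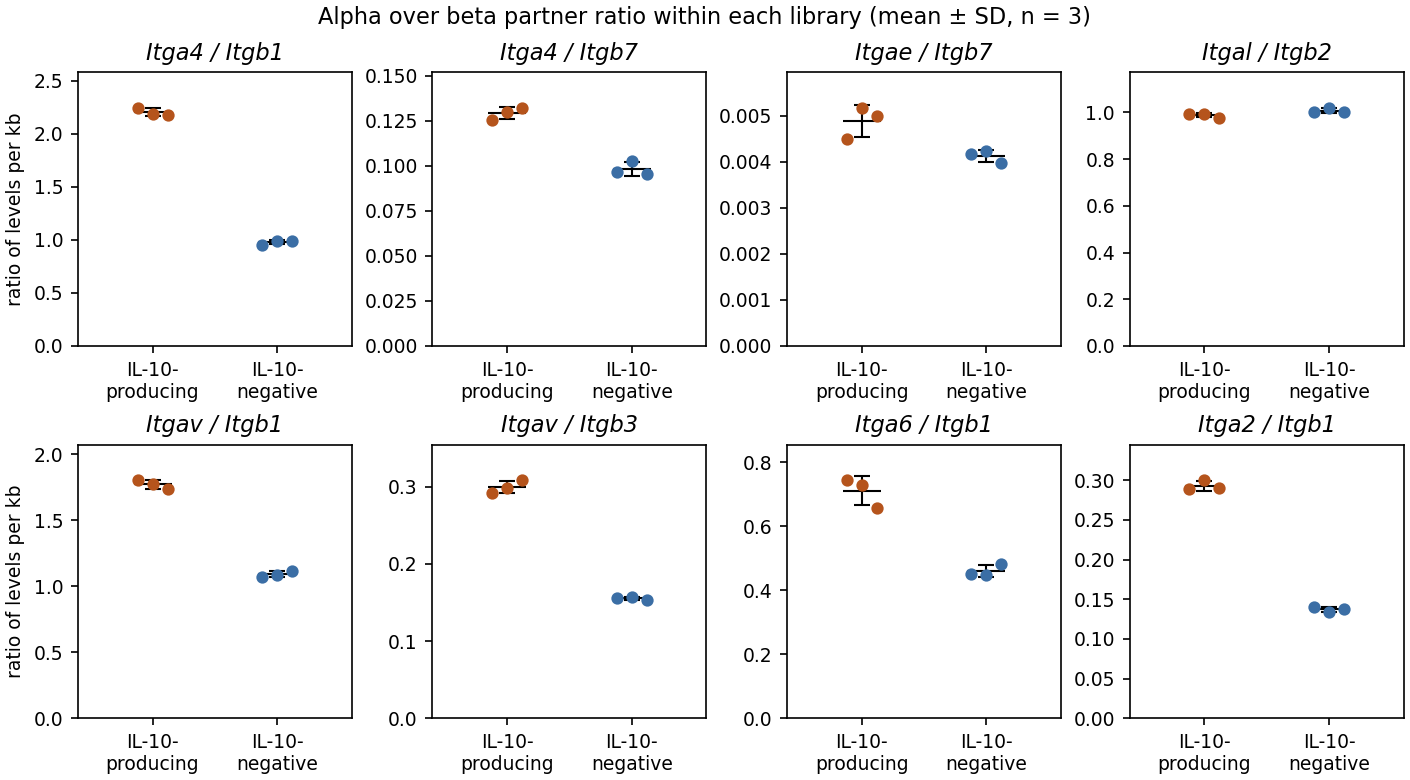
Ratio of alpha to beta partner mRNA within each library (y axis, ratio of CPM per kb, from 0, a separate scale per pair) for 8 known pairs, in 3 IL-10-producing and 3 IL-10-negative libraries with mean and SD. The Itga4 to Itgb1 ratio is 2.18 to 2.24 in IL-10-producing and 0.954 to 0.994 in IL-10-negative libraries, and the Itgal to Itgb2 ratio differs least, with means of 0.988 in IL-10-producing and 1.01 in IL-10-negative libraries.

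The integrin subunit list used here had 26 genes, and 12 of the other 16 were measured. Itga8, Itga11, Itgad and Itgb6 were absent from the deposited counts, where the smallest total of any gene was 10. Of the 12, 1 was higher, 3 were lower and 8 did not pass (median log2 fold change -0.17, beside -0.004 over all genes tested). Among all genes tested, 17.1% were higher and 18.6% lower. The 3 that reached 5 CPM did not pass. Itga3, a laminin receptor chain, averaged 15.4 ± 0.456 CPM in IL-10-producing cells, against 16.3 ± 1.23 CPM in IL-10-negative cells (SD, n = 3 each). Itga5, the classic fibronectin receptor chain, averaged 11.8 ± 0.268 CPM in IL-10-producing cells, against 12.8 ± 0.484 CPM in IL-10-negative cells, and Itgb5, another alpha v partner, 6.48 ± 0.539 CPM in IL-10-producing cells, against 7.52 ± 0.685 CPM in IL-10-negative cells. The 4 that passed were far less abundant and are named after their values were seen. Itgb8, whose product pairs with alpha v and activates latent TGF-beta, was higher at 1.66 ± 0.26 CPM in IL-10-producing cells, against 0.58 ± 0.3 CPM in IL-10-negative cells (log2 fold change 1.52, adjusted p = 8.78e-05). Itga2b, the platelet partner of Itgb3, was lower at 0.741 ± 0.197 CPM in IL-10-producing cells, against 2.045 ± 0.294 CPM in IL-10-negative cells (log2 fold change -1.46, adjusted p = 8.21e-06). Itga1 was lower at 0.352 CPM in IL-10-producing cells, against 0.654 CPM in IL-10-negative cells, and Itgam, known from myeloid cells, at 0.14 CPM in IL-10-producing cells, against 0.399 CPM in IL-10-negative cells.

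Genes that act on integrins from inside the cell came from a list of 38 activators, adaptors and signalling proteins. Of 35 tested, 7 were higher, 13 lower and 15 did not pass (median log2 fold change -0.005). Over all genes tested, 17.1% were higher and 18.6% lower. At 5 CPM or more, 2542 of 10548 genes were higher and 2439 lower. The core activators talin and kindlin-3, named after their values were seen, did not pass. Talin (Tln1) averaged 1128 ± 11.9 CPM in IL-10-producing cells, against 1120.0 ± 8.93 CPM in IL-10-negative cells (SD, n = 3 each; adjusted p = 0.701), and kindlin-3 (Fermt3) 396 ± 7.77 CPM in IL-10-producing cells, against 407 ± 3.56 CPM in IL-10-negative cells (adjusted p = 0.141). Among called genes of the list at 5 CPM or more, the largest fold change was that of Apbb1ip, which encodes RIAM, the adaptor that links the GTPase Rap1 to talin. Apbb1ip had 44.4 ± 0.58 CPM in IL-10-producing cells, against 78.9 ± 2.49 CPM in IL-10-negative cells (log2 fold change -0.83, SE 0.0334, adjusted p = 3.22e-16). Next came Vcl, vinculin, which ties talin to actin, with 14.4 ± 0.0806 CPM in IL-10-producing cells, against 21.1 ± 1.08 CPM in IL-10-negative cells (log2 fold change -0.55). Src and Ptk2, which encode kinases that signal downstream of integrins, were lower too, with 26.6 ± 0.648 CPM of Src in IL-10-producing cells, against 38.2 ± 0.745 CPM in IL-10-negative cells, and 10.25 ± 0.514 CPM of Ptk2, for focal adhesion kinase, in IL-10-producing cells, against 14.3 ± 0.564 CPM in IL-10-negative cells. Fyb, the adaptor ADAP, had 43.8 ± 0.82 CPM in IL-10-producing cells, against 60.7 ± 2.16 CPM in IL-10-negative cells. The 7 that rose, named after their values were seen, were Rap1a, Rap1b, Rapgef1, Rassf5, Ilk (integrin-linked kinase), Lims1 and Cd47, with log2 fold changes of 0.12 to 0.23. These were folds of 1.09 to 1.17, under the 1.2-fold of the stricter test. Rap1a and Rap1b encode Rap1 itself, Rapgef1 an exchange factor for it and Rassf5 an effector of it that binds the alpha L chain. Rasgrp2, for another exchange factor of Rap1, did not pass (log2 fold change 0.008, adjusted p = 0.948). Skap1, an adaptor gene of the same list, was lower (log2 fold change -0.099, adjusted p = 0.000336). Both are named after their values were seen. In the same IL-10-producing libraries the T cell and the mast cell and basophil marker sums given above were lower, and their part in these differences was not tested.

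Tetraspanins are membrane proteins that gather integrins into clusters. Of 8 tested, 0 were higher, 5 lower and 3 did not pass (median log2 fold change -0.16), where 17.1% of all genes tested were higher and 18.6% lower. At 5 CPM or more the lower ones were Tspan32 (59.0 ± 0.746 CPM in IL-10-producing cells, against 69.9 ± 1.04 CPM in IL-10-negative cells), Cd37 (175 ± 2.14 CPM in IL-10-producing cells, against 203 ± 6.98 CPM in IL-10-negative cells) and Cd82 (523 ± 8.08 CPM in IL-10-producing cells, against 553 ± 4.64 CPM in IL-10-negative cells; SD, n = 3 each). Cd9 (0.374 CPM in IL-10-producing cells, against 1.31 CPM in IL-10-negative cells) and Cd63 (1.94 CPM in IL-10-producing cells, against 4.71 CPM in IL-10-negative cells), named after their values were seen, were also lower.

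Of 31 genes for integrin ligands, 16 were tested, with 7 higher, 2 lower and 7 not past the threshold (median log2 fold change 0.21). The shares over all genes tested were 17.1% higher and 18.6% lower. Tgfb3, a TGF-beta whose latent form binds alpha v integrins, averaged 26.6 ± 1.03 CPM in IL-10-producing cells, against 12.9 ± 0.833 CPM in IL-10-negative cells (SD, n = 3 each; log2 fold change 1.05, adjusted p = 1.47e-13). Nid1, the basement membrane protein nidogen, had 14.9 ± 0.476 CPM in IL-10-producing cells, against 9.26 ± 0.112 CPM in IL-10-negative cells (log2 fold change 0.68, adjusted p = 4.84e-09). Fn1, fibronectin, a ligand of several of these pairs, had 6.13 ± 0.223 CPM in IL-10-producing cells, against 4.43 ± 0.392 CPM in IL-10-negative cells. Icam2, a ligand of LFA-1, had 35.2 ± 1.025 CPM in IL-10-producing cells, against 28.7 ± 1.09 CPM in IL-10-negative cells, and Adam15, a membrane protease with an integrin-binding domain, 163 ± 1.83 CPM in IL-10-producing cells, against 135 ± 4.54 CPM in IL-10-negative cells. The 2 lower ones, Cdh1 and Lama5, are named after their values were seen. Cdh1 encodes the E-cadherin that binds alpha E with beta 7, is also in the epithelial marker list, and had 0.379 ± 0.101 CPM in IL-10-producing cells, against 2.08 ± 0.147 CPM in IL-10-negative cells (log2 fold change -2.48, adjusted p = 7.72e-09). Lama5, a laminin chain, had 144 CPM in IL-10-producing cells, against 153 CPM in IL-10-negative cells.

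**Figure D5:**
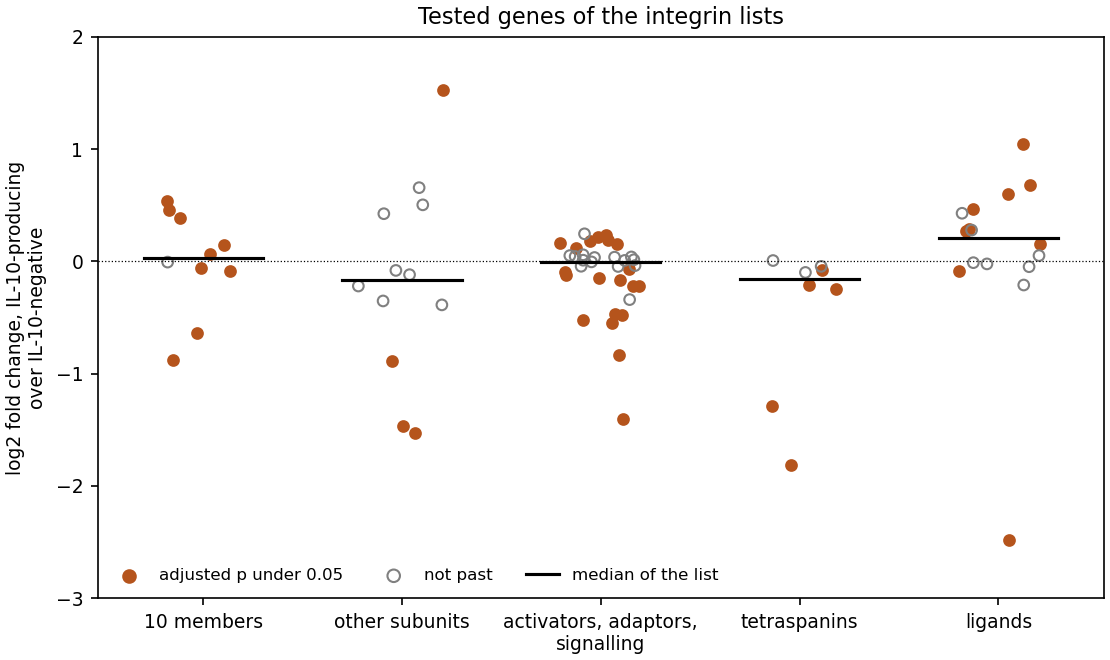
Log2 fold change, IL-10-producing over IL-10-negative (y axis), of each tested gene in the integrin members and 4 related lists; filled points passed an adjusted p of 0.05, open points did not and lines are medians. The 10 members run from -0.88 to 0.54 with a median of 0.03, the tetraspanins have a median of -0.16 and the ligands of 0.21.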

How the data were processed

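RNA was sequenced from 3 libraries of IL-10-producing and 3 of IL-10-negative mouse lung ILC2s, grouped by title, from 10 ng of input RNA per the labels' protocols. Tools named in the submitters' processing notes are STAR 2.5.3a, bcl2fastq 2.17.1.14 and Partek, and the build is mm10. The authors deposited unscaled estimated counts (50.4% of values not whole) and, for 13824 genes, a second table of normalized signal. By the values, every entry of that signal table equalled the deposited estimated count plus 1 times a factor per library within 1%. The annotation release and use of strand were not given in the sources used here. All 10 integrin genes had the same identifier in GENCODE M21, and listed stops were lowered by 1 to match its ends. Within the span of Itga4, the opposite strand holds part of Cerkl (1.25 CPM in IL-10-producing cells, against 1.23 CPM in IL-10-negative cells), and Itgae, Itgav and Itga6 overlap other annotated genes.

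Counts were rounded and tested with edgeR 4.0.16 in R 4.3.3 (quasi-likelihood F test, TMM, group as the only term, filterByExpr with minimum count 10 and total 15). All 10 members passed that filter. The SE is the absolute log2 fold change over the square root of F. Alternatives used DESeq2 1.42.0, limma 3.58.1 (voom, and log2 of the normalized values plus 1), other scalings and filters, a replicate block and leaving out each library. Partner ratios were compared with SciPy 1.17.1. Libraries of the same group differed more than counting noise alone gives (2.39 to 2.95 times the Poisson value, median over genes), so none was a copy.

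The members, the 4 related gene lists, the 10 marker lists and the 8 pairs were chosen with earlier results of these data known, so no list was tested as a set. All 10 members are named. From each related list the rule took up to 5 genes past the threshold with the largest change, at least 5 CPM and no overlap, and any other subunit at 5 CPM. Genes named outside it are marked.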

Additional observations from a re-analysis of the deposited data

How the results depend on the processing

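Itga4, Itga2, Itgb3 and Itgb1 kept their direction and their call under every alternative run, with log2 fold changes of 0.505 to 0.56, 0.43 to 0.50, -0.91 to -0.87 and -0.665 to -0.60. The 1.2-fold test is among these alternatives, and it alone sets these genes apart from Itgal and Itgb7. Those 2 genes kept their call in 14 of 15 alternatives each and lost it only in that test. Of 150 refits of a single member, 136 stayed on the same side of the threshold and 14 lost the call. These include 15 of Itga6, which was not called and whose sign turned in some. No called member changed direction. For called members the groups did not overlap, so leaving out a library or adding a block could hardly turn a direction. Against a change of 1.2-fold, a test added after the data had been seen, 1317 of all genes passed rather than 5943, with 2 members higher rather than 5 and 2 lower rather than 4. Leaving out each library in turn gave 5232 to 5519 genes changed, 3 to 5 members higher and 3 to 4 lower. The lowest count of higher members came without IL-10-producing replicate 2, when the calls of Itgae and Itgav were lost. With the replicate number as a block, 5817 genes changed, with 5 members higher and 4 lower. Libraries with the same number did not deviate together (r = -0.0402 to -0.0177 over 10400 genes), and no library correlated best with its own number, so the numbers were not taken as pairs. For the 8 partner ratios, leaving out a library could not turn the direction, since the groups do not overlap, and the replicate block leaves the mean difference as it is, so the refits say nothing of their stability. Depth limits Itgae most, at 144 to 261 counts per library.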
